A study of Mus musculus with 4 samples.

Results

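The variable (V) genes of the T cell receptor were read in single cells from MC38 tumours under 4 treatments. They are all genes of the expression table whose symbol starts with Trav, Trbv, Trdv or Trgv, which gives 38 of its 13518 genes. Of these, 24 are alpha chain genes (Trav) and 12 are beta chain genes (Trbv), and the others are the delta chain gene Trdv2-2 and the gamma chain gene Trgv2. The mouse genome holds further V genes, which were not analysed here, so each share below is a share among these 38.

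MC38, a colon carcinoma line of the mouse, was implanted orthotopically into C57BL/6 mice. The combination arm received ATT-I (Atractylenolide I, a plant sesquiterpene lactone) at 50 mg/kg daily together with anti-PD-1, an antibody that blocks a T cell inhibitory receptor, given 3 times a week for 5 doses. The anti-PD-1 arm received the antibody and the ATT-I arm the compound, each on the same schedule. The vehicle arm is called a vehicle control in the protocol and untreated in its own label. In every arm 5 tumours were pooled 2 weeks after the first treatment and gave 1 droplet library, so a difference between arms is a difference between single libraries, from which a treatment effect cannot be told apart. The libraries held 199 combination, 12562 anti-PD-1, 297 ATT-I and 155 vehicle cells, and 1 cell barcode was found in 2 libraries. The median cell held 23927 unique molecular identifiers (UMIs, counted transcripts) in the combination, 7148 with anti-PD-1, 6828 with ATT-I and 16129 in vehicle.

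A T cell receptor V segment is joined to J segments, and in beta and delta chains also to D segments, by DNA rearrangement in the thymus. A T cell as a rule makes a single beta chain and passes its rearranged genes to all daughter cells, so that cells of a clone carry the same V genes. Most T cells bear an alpha and a beta chain, and a minority bear gamma and delta chains. A beta chain V segment can be joined to either of the constant genes Trbc1 and Trbc2, which lie in separate clusters and encode nearly the same protein.

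In each cell the V gene of a chain with the most UMIs was taken as leading, and cells with ties were given none. Cells led by Trbv2, for example, are called Trbv2-led. Gates were set on UMIs of marker genes. The CD8 gate required both Cd8a and Cd8b1, the coreceptor chains of cytotoxic T cells, and no Cd4 or Foxp3. The CD4 gate required Cd4, the helper T cell coreceptor, without Foxp3 or both CD8 chains. The Foxp3 gate required Foxp3, the factor that marks regulatory T cells, without both CD8 chains. The Klra6 and Ifitm1 gates took any cell with a UMI of Klra6, a Ly49 family receptor gene, or of Ifitm1, an interferon-inducible membrane protein gene. The CD8 gate held 110 combination, 7347 anti-PD-1, 103 ATT-I and 43 vehicle cells, and the CD4 gate held 40, 1223, 92 and 55 in the same order. The Foxp3 gate held 29, 1159, 28 and 24 cells. The Klra6 and Ifitm1 gates held 945 and 2119 cells with anti-PD-1 and at most 15 in any other library, so gates are compared within the anti-PD-1 library. Intervals are exact 95% limits (approximate for effective numbers) that cover counting error only, and UMIs of the same cell are not independent.

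Nearly all cells held transcripts of the receptor constant genes. Trbc2 was found in 99.5% of cells in the combination, 98.6% under anti-PD-1, 94.9% under ATT-I and 94.8% in vehicle, and Trac, the alpha constant gene, in 99%, 97.6%, 93.9% and 89.7%. V genes were found far less often. A Trbv UMI was found in 44.7% of cells in the combination, 20.8% under anti-PD-1, 15.8% under ATT-I and 23.9% in vehicle. A Trav UMI was found in 26.6% in the combination, 12.5% under anti-PD-1, 23.2% under ATT-I and 39.4% in vehicle. With all UMIs, beta chain genes were thus most often found in the combination and alpha chain genes in vehicle. After each cell was thinned to 3000 UMIs, a Trbv UMI was found in 10.3%, 8.99%, 6.86% and 3.92% of cells. A Trav UMI was found in 7.22%, 5.65%, 14.8% and 18.3%. The combination interval for Trbv (6.41 to 15.5) then held the anti-PD-1 value and overlapped those of ATT-I (4.18 to 10.5) and vehicle (1.45 to 8.34). The lead of the combination was thus not clear at equal depth. The vehicle interval for Trav (12.5 to 25.4) overlapped that of ATT-I (10.8 to 19.5) and lay above the others. Per 100 Trac UMIs there were 3.46 Trav UMIs in the combination, 2.4 with anti-PD-1, 6.72 with ATT-I and 9.72 in vehicle. Per 100 Trbc1 and Trbc2 UMIs there were 2.14, 1.2, 0.831 and 1.08 Trbv UMIs. Cells that should lack V gene transcripts, with no UMI of Cd3e, Trac, Trbc1 or Trbc2, numbered 2 over all libraries, so no background share from free RNA can be given. Of cells with any Trbv UMI, 11.2% in the combination, 5.96% with anti-PD-1, 4.26% with ATT-I and 8.11% in vehicle held UMIs of several Trbv genes.

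Trbv2 was the leading beta chain gene of the combination and anti-PD-1 libraries and was rare in the other libraries. It is shown here with the genes next to it in the anti-PD-1 CD8 gate. The lines give the last 60 coding bases of each V exon in the GENCODE vM21 annotation of GRCm38, all on the plus strand. Capitals mark the last in-frame cysteine codon, which lies shortly before the end of the V segment, where the join to D and J is made.
Trbv2, chr6:41047936-41047995: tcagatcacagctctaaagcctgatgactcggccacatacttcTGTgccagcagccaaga
Trbv13-1, chr6:41116409-41116468: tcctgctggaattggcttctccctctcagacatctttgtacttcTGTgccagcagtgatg
Trbv16, chr6:41152171-41152230: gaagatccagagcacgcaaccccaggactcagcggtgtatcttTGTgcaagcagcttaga
Trbv29, chr6:41271822-41271881: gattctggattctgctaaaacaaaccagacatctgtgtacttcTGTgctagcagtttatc
None of the 12 Trbv genes has another annotated V gene at 97% coding identity or more, and the closest is at 90.6%, for Trbv13-2.

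Trbv2 had 127 UMIs in the combination, 1180 with anti-PD-1, 2 with ATT-I and 8 in vehicle. It led 45 of 84 combination cells with a leading Trbv gene (53.6%, 42.4 to 64.5), 748 of 2491 under anti-PD-1 (30%, 28.2 to 31.9), 2 of 46 under ATT-I (4.35%, 0.531 to 14.8) and 3 of 35 in vehicle (8.57%, 1.8 to 23.1). The combination and anti-PD-1 intervals lay apart from each other and from those of ATT-I and vehicle. Among cells led by at least 2 UMIs the combination and anti-PD-1 shares overlapped, at 31 of 52 (59.6%, 45.1 to 73) and 270 of 485 (55.7%, 51.1 to 60.1). Per UMI of depth, the log2 ratio of Trbv2 was 3.23 between combination and vehicle (2.21 to 4.48), 2.07 between anti-PD-1 and vehicle (1.09 to 3.29) and 1.16 between combination and anti-PD-1 (0.88 to 1.43). Between ATT-I and vehicle it was -1.89, with an interval from -5.17 to 0.43 that includes no difference. These ratios share the vehicle or the combination library.

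Trbv2 dominance lay in the CD8 gate. Trbv2 led 40 of 61 combination CD8-gate cells (65.6%, 52.3 to 77.3) and 582 of 1709 anti-PD-1 cells (34.1%, 31.8 to 36.4), against 0 of 18 with ATT-I and 2 of 17 in vehicle. Among CD8-gate cells led by at least 2 UMIs it led 27 of 39 in the combination (69.2%, 52.4 to 83) and 213 of 359 under anti-PD-1 (59.3%, 54.1 to 64.5), which overlap. As a share of the whole gate, a Trbv2 UMI was found in 37.3% in the combination, 8.21% under anti-PD-1, 0 of 103 cells under ATT-I (at most 3.52%) and 4.65% in vehicle. The order of combination over anti-PD-1 was kept after thinning, at 11.9% against 3.15%, with 0 in ATT-I and 2.38% in vehicle.

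**Figure D1:**
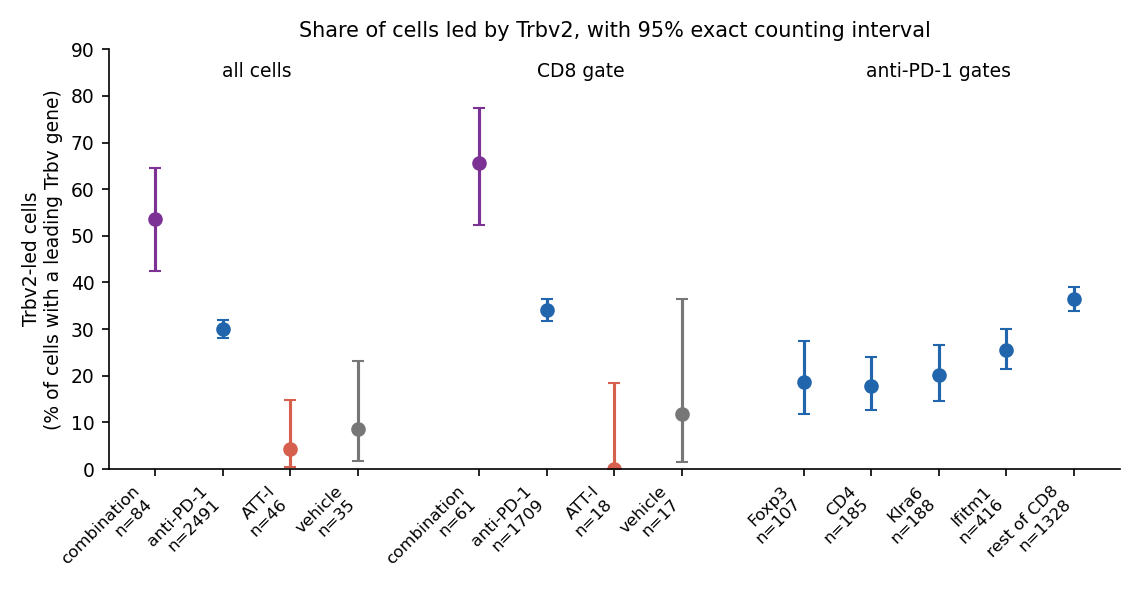
Share of cells led by Trbv2, in percent of cells with a leading Trbv gene, by library and gate. Points are shares, bars exact 95% counting intervals and n the cells with a leading Trbv gene. The combination points stand at 53.6% of all cells and 65.6% of the CD8 gate, above every other point.

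The other beta chain genes were spread differently in each library. In the combination the next genes were Trbv19 with 10 cells and Trbv3 with 8 of 84. With anti-PD-1 they were Trbv13-1 with 326 cells (13.1%) and Trbv16 with 285 (11.4%) of 2491. With ATT-I, Trbv12-2 and Trbv13-1 led 9 of 46 cells each (19.6%), followed by Trbv16 and Trbv20 with 5 each. In vehicle, Trbv13-1 led 7 of 35 cells (20%), Trbv13-2 led 5 and Trbv12-2 led 4. Trbv16 and Trbv29 set the combination and anti-PD-1 libraries apart in the direction opposite to Trbv2. Trbv16 had 1 UMI in the combination, 387 with anti-PD-1, 6 with ATT-I and 3 in vehicle, a log2 ratio of -4.22 between combination and anti-PD-1 (-9.53 to -1.73). Trbv29 had 0 UMIs in the combination, 203 with anti-PD-1, 2 with ATT-I and 1 in vehicle. With a floor of 3 UMIs for the combination, the Trbv29 log2 ratio between combination and anti-PD-1 was -1.70. This value is set by the floor and is not a limit of its interval.

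Evenness was measured as the effective number of Trbv genes, the inverse of the probability that 2 cells drawn at random share a leading gene. It was 3.15 in the combination (2.41 to 4.55), 6.81 with anti-PD-1 (6.45 to 7.21), 9.5 with ATT-I (7.1 to 14.3) and 11 in vehicle (8.04 to 17.5), of 12 genes. The combination interval lay below all others. The anti-PD-1 and ATT-I intervals overlap narrowly, and those of ATT-I and vehicle widely. In the CD8 gate it was 2.24 in the combination (1.71 to 3.25) and 5.71 with anti-PD-1 (5.35 to 6.12). Among cells led by at least 2 UMIs the effective numbers came close, at 2.68 in the combination and 2.95 with anti-PD-1 over all cells, and at 2.04 and 2.63 in the CD8 gate. Effective numbers of Trav genes were 10.3 in the combination, 15.8 with anti-PD-1, 17.3 with ATT-I and 13.1 in vehicle, of 24 genes.

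**Figure D2:**
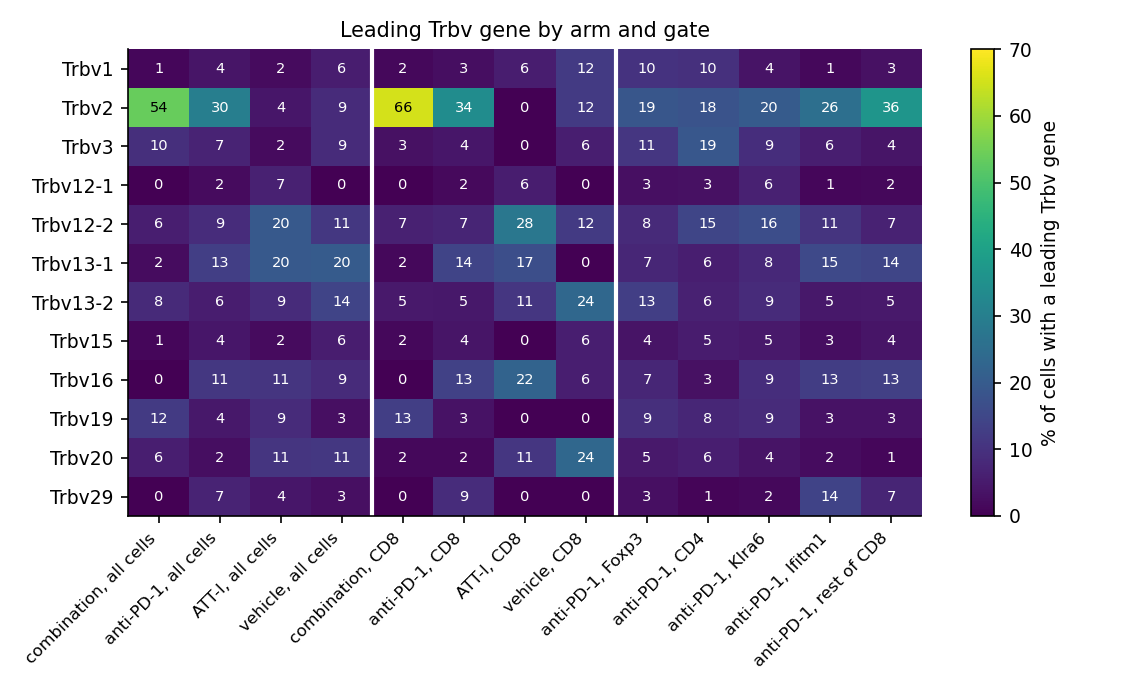
Leading Trbv gene by library and gate. Each cell of the grid gives the percent of cells with a leading Trbv gene that are led by the gene in the row. The Trbv2 row is highest in the combination columns, where it stands at 53.6% of all cells and 65.6% of the CD8 gate.

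Within the anti-PD-1 library Trbv2 led the most cells in every gate but CD4, where Trbv3 stood level with it, and its share differed between gates. In the CD8 gate Trbv2 (34.1%) was followed by Trbv13-1 with 246 cells (14.4%) and Trbv16 with 229 (13.4%) of 1709. In the CD4 gate Trbv3 led 35 of 185 cells (18.9%, 13.5 to 25.3), Trbv2 led 33 (17.8%, 12.6 to 24.1) and Trbv12-2 led 27 (14.6%). In the Foxp3 gate Trbv2 led 20 of 107 cells (18.7%, 11.8 to 27.4), Trbv13-2 led 14 and Trbv3 led 12. The Trbv2 share was thus higher in the CD8 gate than in the CD4 or the Foxp3 gate, with intervals that do not overlap, but among cells led by at least 2 UMIs it was 59.3% in the CD8 gate (54.1 to 64.5), 15 of 34 in the CD4 gate (44.1%, 27.2 to 62.1) and 5 of 14 in the Foxp3 gate (35.7%, 12.8 to 64.9), which overlap. In the Klra6 gate Trbv2 led 38 of 188 cells (20.2%, 14.7 to 26.7), Trbv12-2 led 31 (16.5%), and Trbv16 and Trbv3 led 17 each. In the Ifitm1 gate Trbv2 led 106 of 416 cells (25.5%, 21.4 to 30), Trbv13-1 led 64 and Trbv29 led 59 (14.2%). In CD8-gate cells without Klra6 or Ifitm1, Trbv2 led 484 of 1328 (36.4%, 33.9 to 39.1), above both of these gates. Of the Klra6-gate cells only 39.2% and of the Ifitm1-gate cells 68.1% lay in the CD8 gate, so this contrast also mixes cell types. Their shares among cells led by at least 2 UMIs are given at the end, without intervals. The effective number of Trbv genes was 10.1 in the Foxp3 gate (8.57 to 12.3), 8.64 in the CD4 gate (7.56 to 10.1), 9.1 in the Klra6 gate (7.92 to 10.7), 7.02 in the Ifitm1 gate (6.36 to 7.82) and 5.31 in the remaining CD8 cells (4.93 to 5.77).

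Trbv2-led cells also held more UMIs of their V gene. With anti-PD-1, 270 of the 748 Trbv2-led cells (36.1%) were led by at least 2 UMIs, while for the other 11 genes this share lay between 5.77% and 17.2%. Among the 485 anti-PD-1 cells led by at least 2 UMIs of any Trbv gene, Trbv2 led 55.7% (51.1 to 60.1). Among the 2006 led by a single UMI it led 478 (23.8%, 22 to 25.8). The shares above therefore depend on the UMIs asked of a cell. Asking for 2 UMIs kept Trbv2-led anti-PD-1 cells more often than others, so overlaps under it cannot show whether libraries or gates differ. In the CD4 gate 15 of the 33 Trbv2-led cells but 0 of the 35 Trbv3-led cells were led by at least 2 UMIs. In the combination, 52 of 84 cells (61.9%) were led by at least 2 UMIs, and Trbv2 led 14 of the 32 others (43.8%).

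The constant gene gave a reading of the beta chain that the V gene UMIs do not enter. Reads of Trbc1 and Trbc2 may be split uncertainly, since their coding sequences are close. Of anti-PD-1 CD8-gate cells with unequal UMIs of the 2 genes, 37.4% of 7210 held more Trbc1 than Trbc2. Of the Trbv2-led cells, 27 of 574 did (4.7%, 3.12 to 6.77). Of cells led by another Trbv gene, 454 of 1106 did (41%). Trbv2-led CD8-gate cells thus nearly all leaned to Trbc2. In cells led by at least 2 Trbv2 UMIs 7 of 212 held more Trbc1 (3.3%), and in those led by 1 UMI 20 of 362 did (5.52%). Other genes leaned either way. Trbv16-led cells leaned to Trbc2 (30 of 228 with more Trbc1, 13.2%), while Trbv29-led (110 of 146, 75.3%), Trbv1-led (30 of 45, 66.7%) and Trbv13-1-led cells (144 of 239, 60.3%) leaned to Trbc1.

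In the other gates of the anti-PD-1 library, 11 of 32 Trbv2-led cells held more Trbc1 in the CD4 gate (34.4%, 18.6 to 53.2), 2 of 20 in the Foxp3 gate (10%) and 13 of 101 in the Ifitm1 gate (12.9%). In the combination library the lean of CD8-gate Trbv2-led cells was not seen. There 14 of 38 held more Trbc1 (36.8%, 21.8 to 54), against 3 of 21 cells led by another Trbv gene (14.3%). The combination and anti-PD-1 intervals for Trbv2-led CD8-gate cells lie far apart, so the Trbv2-led cells of the libraries differed in the constant gene they used.

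**Figure D3:**
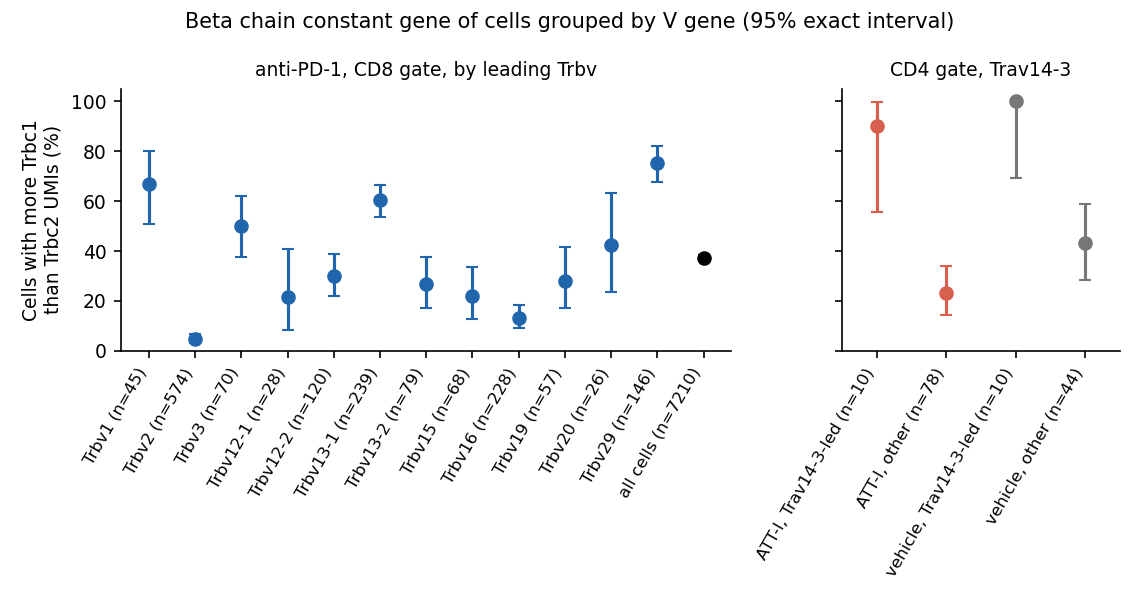
Percent of cells with more Trbc1 than Trbc2 UMIs, of cells in which they differ, with exact 95% intervals. Left, anti-PD-1 CD8-gate cells by leading Trbv gene, with Trbv2 lowest at 4.7%. Right, CD4-gate cells led by Trav14-3 and other CD4-gate cells of ATT-I and vehicle, with 90% and 100% in the Trav14-3-led cells.

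Alpha and beta leaders could be read in the same cell in few cells. In the anti-PD-1 CD8 gate 158 cells had both, and the most frequent pair was Trbv2 with Trav13-1 in 25 (15.8%), where the shares of the 2 genes multiply to 7.46 cells. Trbv29 with Trav9n-4 followed in 13 cells (2.62 by the same product) and Trbv19 with Trav16n in 11 (1.68). The first of these pairs leaned to Trbc2 and the second to Trbc1. Of the cells that could be read, 1 of 25 with Trbv2 and Trav13-1 held more Trbc1 (4%), against 12 of 13 with Trbv29 and Trav9n-4. In the combination CD8 gate 15 cells had both leaders, and Trbv2 stood with Trav6-7-dv9 in 4 (2.13 by the product of shares) and with Trav5-4 in 3 (3.2), while Trbv12-2 stood with Trav5-4 in 3 (1.2). In the same order, 3 of 4, 0 of 3 and 0 of 3 of these cells held more Trbc1. In the anti-PD-1 CD4 gate the pair of Trbv2 and Trav6-7-dv9 was found in 4 of 23 cells, and all 4 held more Trbc1. In the Ifitm1 gate Trbv29 with Trav9n-4 was found in 4 of 41 cells and Trbv2 with Trav6-7-dv9 in 3. In vehicle, Trbv20 with Trav5-4 was found in 3 of 9 CD8-gate cells.

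Trbv2-led cells were set beside CD8-gate cells led by other Trbv genes. Genes named here were chosen after their values were seen. With anti-PD-1 (582 against 1127 cells, median depth 10257.5 against 8365 UMIs), 1.51% of 11399 genes were at least 2-fold higher and 4.52% lower. Besides Trbc1 (log2 -2.60), 1 of the 14 tested genes of a list of receptor partners (constant genes, CD3 chains and proximal signalling genes) passed it, Trdc at 2 against 28 UMIs. Klra3, another Ly49 family gene, was found in 4.81% of Trbv2-led and 20.9% of other cells (log2 -2.57), and Cd226, an activating receptor gene, in 20.4% and 55.6% (-2.01). Serpinb9b, a serine protease inhibitor gene, was found in 16.8% of Trbv2-led and 6.21% of other cells (1.36), and Gm156 in 66.2% and 29.6% (1.51). Ifitm3, a relative of Ifitm1, was found in 13.9% of Trbv2-led cells and 25.6% of other cells (-1.85). Of these 5 genes, Klra3, Cd226 and Ifitm3 were thus lower in Trbv2-led cells and Serpinb9b and Gm156 higher.

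In the combination (40 against 21 cells, median depth 32964 against 24736 UMIs), 8.79% of 8358 genes were at least 2-fold higher and 5.85% lower. Gzma, encoding the protease granzyme A, had 15 UMIs in 3 Trbv2-led cells, against 1091 UMIs in 9 other cells, of which a single cell held 760. With anti-PD-1 Gzma was also lower in Trbv2-led cells, in 19.8% against 28.9% (log2 -1.52). Prf1, encoding perforin, was found in 97.5% of combination Trbv2-led and 71.4% of other cells (1.19), and with anti-PD-1 in 78.7% and 75.3% (0.32). Tnfrsf4, encoding the costimulatory receptor OX40, was found in 80% against 33.3% in the combination (1.31, 0.79 to 1.87) and in 37.8% against 39.7% with anti-PD-1 (-0.72, -0.90 to -0.54). The Tnfrsf4 difference thus ran in opposite directions in the 2 libraries. Cd226 had a log2 ratio of 0.14 in the combination (-0.26 to 0.55), where its ratio with anti-PD-1 was -2.01. Trbc1 was at -0.10 in the combination (-0.25 to 0.05), where it was at -2.60 with anti-PD-1. Serpinb9b (2.70, 1.05 to 5.04), Gm156 (0.40, 0.05 to 0.77), Ifitm3 (-1.55, -2.24 to -0.88) and Klra3 (0 against 5 UMIs) kept their directions, though on few cells. Single cells held many of these UMIs, which the intervals do not cover. For Ifitm3 a single cell held 24 of 33 UMIs in Trbv2-led cells and another 41 of 46 in other cells. For Gm156 a single cell held 76 of the 90 UMIs in other cells, and for Serpinb9b 20 of 41 in Trbv2-led cells. Gzmf, another granzyme gene, had 345 UMIs in 6 combination Trbv2-led cells, 200 of them in a single cell, against 11 UMIs in 3 other cells.

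Among alpha chain genes Trav5-4 stood first in the combination. It led 12 of 52 combination cells with a leading Trav gene (23.1%), 134 of 1489 under anti-PD-1 (9%) and 8 of 55 in vehicle (14.5%). In the CD8 gate Trav5-4 led 11 of 27 cells in the combination (40.7%), 94 of 763 under anti-PD-1 (12.3%) and 6 of 18 in vehicle. Trav5-4 UMIs numbered 41 in the combination, 250 with anti-PD-1, 6 with ATT-I and 44 in vehicle. After thinning, a Trav5-4 UMI was found in 2 of 109 CD8-gate cells in the combination (1.83%), 0.403% under anti-PD-1, 1 of 100 under ATT-I and 3 of 42 in vehicle (7.14%), where the intervals of combination and vehicle (0.223 to 6.47 and 1.5 to 19.5) overlap. With anti-PD-1 Trav16n led the most cells, 174 of 1489 (11.7%), and Trav13-1 and Trav3-3 led 130 each (8.73%). Trav6-7-dv9 led 9 combination cells and 6 ATT-I cells, Trav10 led 5 combination cells and Trav3-3 led 6 vehicle cells. In the ATT-I CD8 gate Trav12-3 led 4 of 25 cells (16%). Alpha chain genes are harder to tell apart than beta chain genes. Of the 24, Trav8-2 is annotated as a pseudogene and had no coding sequence to compare. Of the others, 17 have another annotated V gene at 97% coding identity or more, and for 11 of these the nearest gene was not analysed here.

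Trav14-3 was a leading alpha chain gene of the CD4 gate in ATT-I and vehicle. It is printed with its near copies Trav14n-3 and Trav14d-3-dv8, each 97.2% identical over the coding sequence, because reads of these genes may be assigned to one another. The lines give the last 60 coding bases on the plus strand of GRCm38. Capitals mark the cysteine codon in Trav14-3 and, in the copies, the bases that differ from Trav14-3.
Trav14-3, chr14:53763635-53763694: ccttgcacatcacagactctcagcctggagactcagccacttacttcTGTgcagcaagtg
Trav14n-3, chr14:53370516-53370575: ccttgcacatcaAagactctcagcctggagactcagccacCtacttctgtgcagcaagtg
Trav14d-3-dv8, chr14:53078986-53079045: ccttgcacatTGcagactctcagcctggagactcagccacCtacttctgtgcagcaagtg
The copies differ from Trav14-3 at 2 and 3 of these positions.

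In the CD4 gate Trav14-3 led 0 of 10 combination cells with a leading Trav gene, 1 of 145 under anti-PD-1, 10 of 19 under ATT-I (52.6%, 28.9 to 75.6) and 10 of 23 in vehicle (43.5%, 23.2 to 65.5). Its UMIs in the gate numbered 0, 3, 30 and 33 in that order, with at most 6 in a cell. As a share of the whole gate, Trav14-3 was found in 0 of 40 cells in the combination (at most 8.81%), 0.164% under anti-PD-1, 12% under ATT-I and 20% in vehicle, and after thinning in 0%, 0.0874%, 10.2% and 13%. The ATT-I and vehicle libraries thus stood together, above anti-PD-1. Over all cells, Trav14-3 had 1, 53, 31 and 35 UMIs, and its log2 ratio was -5.88 between combination and vehicle (-11.23 to -3.31) and -4.53 between anti-PD-1 and vehicle. Of the Trav14-3-led cells of the CD4 gate, 3 in ATT-I and 5 in vehicle had a leading Trbv gene, which was Trbv13-1 in all of them. In ATT-I 9 of 10 Trav14-3-led cells held more Trbc1 than Trbc2 (90%, 55.5 to 99.7), against 18 of 78 other cells of the gate (23.1%). In vehicle 10 of 10 did (69.2 to 100), against 19 of 44 others (43.2%).

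**Figure D4:**
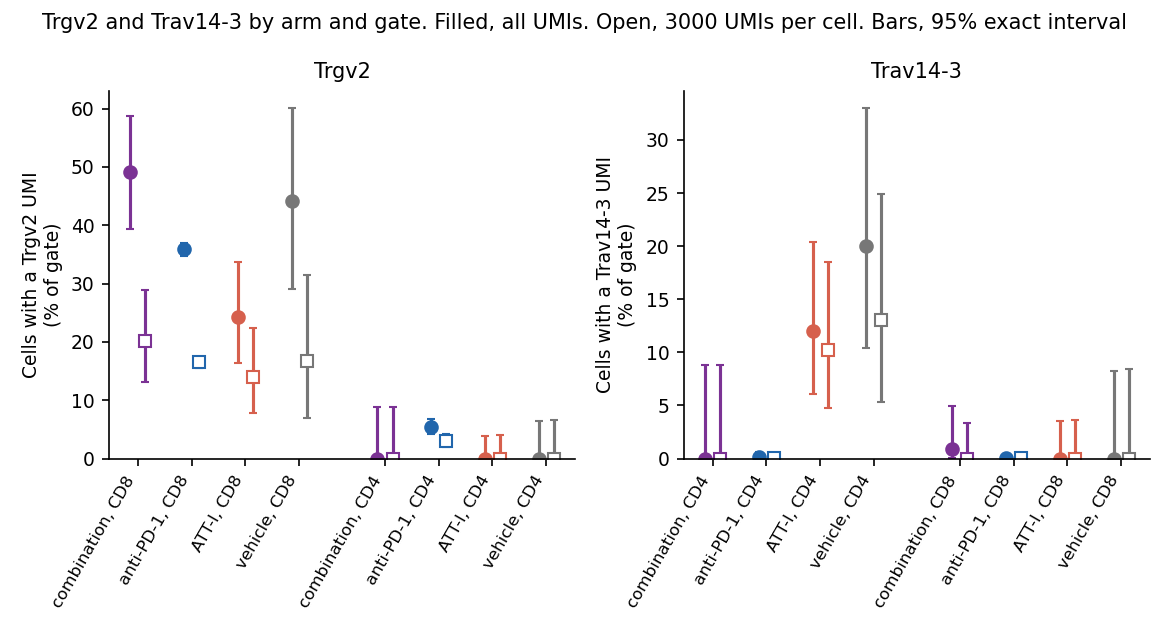
Percent of gate cells with a UMI of Trgv2 (left) and Trav14-3 (right), by library and gate. Filled points use all UMIs, open squares cells thinned to 3000 UMIs, and bars are exact 95% intervals. Trgv2 lies between 24.3% and 49.1% in the CD8 gates, and Trav14-3 at 12% and 20% in the CD4 gates of ATT-I and vehicle.

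The Trav14-3-led cells were set beside CD4-gate cells without a Trav14-3 UMI, 10 against 81 in ATT-I and 10 against 44 in vehicle. Their median depth was 7372.5 against 5273 UMIs in ATT-I and 10193.5 against 7337.5 in vehicle. Of 1646 genes with at least 50 UMIs in each library, 59 were at least 2-fold higher in ATT-I (3.58%) and 32 in vehicle (1.94%), 8 of them in both. Lower were 112 in ATT-I (6.8%) and 59 in vehicle (3.58%), 10 of them in both. Ccl1, a chemokine gene, had 70 UMIs in Trav14-3-led and 123 in other cells of ATT-I (log2 2.14), and 571 and 254 in vehicle (2.88). Penk, which encodes the precursor of enkephalin peptides, had 70 UMIs against 271 in ATT-I and 596 against 411 in vehicle (2.25), where its log2 ratio in ATT-I was only just at 2-fold (interval 0.60 to 1.38), and Il1r2, the decoy receptor for interleukin 1, had log2 ratios of 1.82 in ATT-I and 2.79 in vehicle. Nkg7, a cytotoxic granule gene, had 1.62 and 1.06. Gzmc, a granzyme gene, had 0 UMIs in the Trav14-3-led cells of either library, against 312 in other ATT-I cells and 256 in other vehicle cells. Furin, encoding a proprotein convertase, had -1.29 and -2.03. With 10 cells a library, a few cells can set such values. The other shared genes were Rgs16, Kdm2b, Eea1 and Rel among those higher and Sp110, Tubb4b, Xaf1, Hist1h2ae, Rrm2, Tuba1a, Itgb7 and Rasal3 among those lower.

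Trgv2 was the V gene found most often. The gene lies on the minus strand of chromosome 13, and its last 60 coding bases are shown since it is the only gamma chain V gene analysed, with the cysteine codon in capitals.
Trgv2, chr13:19336573-19336632: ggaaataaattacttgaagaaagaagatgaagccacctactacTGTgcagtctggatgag
It had 313 UMIs in 58 combination cells, 6080 in 3379 anti-PD-1 cells, 86 in 36 ATT-I cells and 120 in 25 vehicle cells. In the CD8 gate a Trgv2 UMI was found in 49.1% of cells in the combination, 35.9% under anti-PD-1, 24.3% under ATT-I and 44.2% in vehicle. In the CD4 gate it was found in 0 of 40 cells in the combination (at most 8.81%), 5.4% under anti-PD-1, 0 of 92 under ATT-I (at most 3.93%) and 0 of 55 in vehicle (at most 6.49%). The difference between the gates was thus present in all 4 libraries. After thinning the CD8-gate shares were 20.2%, 16.5%, 14% and 16.7%, close to each other, and the CD4-gate shares 0%, 2.97%, 0% and 0%. Within the anti-PD-1 library the log2 ratio of CD8 to CD4 gate was 2.54 (2.25 to 2.85), and it was 2.75 for Tcrg-C2, a gamma constant gene. Median depth was 7883 UMIs in the CD8 gate and 5434 in the CD4 gate.

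Cells with Trgv2 were cells with alpha and beta chain transcripts. Trac was found in 3352 of the 3379 anti-PD-1 cells with Trgv2. Among cells with Trgv2, Tcrg-C2 was found in 49 of 58 in the combination, 2777 of 3379 under anti-PD-1, 33 of 36 under ATT-I and 23 of 25 in vehicle. Trdc, the delta constant gene, was found in 26 of the 3379. The nearest annotated V gene to Trgv2 is Tcrg-V1 at 95.7% coding identity. Trdv2-2, the delta chain V gene, was found in 0 combination, 8 anti-PD-1, 5 ATT-I and 8 vehicle cells, with 0, 8, 6 and 14 UMIs. Ncr1, a natural killer cell receptor gene, was found in 4 of the 8 anti-PD-1, 4 of the 5 ATT-I and 6 of the 8 vehicle cells with Trdv2-2, and Trdc in 3, 4 and 6. Summed natural killer cell markers stood at 0.724 UMIs per 10000 in the combination, 3.89 with anti-PD-1, 3.87 with ATT-I and 8.37 in vehicle. Their part in the Trdv2-2 values was not tested.

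Counts over all V genes were set beside counts over all genes, with 2-fold as the limit and at least 10 UMIs over both groups. V genes have few UMIs, with a median of 19 over combination and vehicle against 170 for all genes tested, so their ratios carry wide counting intervals. Between combination and vehicle 6 of 20 tested V genes were higher, where 2.79% of all genes were, and 5 lower, where 7.83% of all genes were. The median log2 ratio was 0.29 for V genes and -0.10 for all genes. Beside Trbv2, Trbv19 was higher with 23 against 2 UMIs (2.77, 0.75 to 5.90). Between anti-PD-1 and vehicle 5 of 38 were higher and 10 lower (4.45% and 15.9% of all genes, medians -0.04 for V genes and -0.21 for all). Trbv29 was higher by 2.53 and Trbv16 by 1.88, and Trav5-4 was lower (-2.62). Between ATT-I and vehicle 3 of 18 were higher and 4 lower (4.45% and 9.75% of all genes, medians -0.09 and -0.17). Between combination and anti-PD-1 9 of 37 were higher and 11 lower (10.4% and 7.89% of all genes, medians 0 and 0.04). Trav16d-dv11 had 11 UMIs in 4 combination cells against 14 UMIs in 12 anti-PD-1 cells (4.03, 2.74 to 5.27), and Trav5-4 was higher by 1.77. Between combination and ATT-I 7 of 19 were higher and 5 lower (7.21% and 8.82% of all genes, medians -0.01 and 0.07). With at least 50 UMIs over both groups, 1 V gene passed 2-fold between combination and vehicle (higher) and 1 between ATT-I and vehicle (lower). Between combination and ATT-I 2 passed (both higher). Few V genes reach this limit. They are Trbv2, Trav5-4 and Trgv2 for combination and vehicle, and Trav14-3, Trav5-4 and Trgv2 for ATT-I and vehicle. For combination and ATT-I they are Trbv2 and Trgv2. No share of all genes is given at this limit.

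The same comparisons within the CD8 gate rest on fewer UMIs. Between combination and anti-PD-1 7 of 34 tested V genes were higher and 6 lower (11.2% and 8.76% of all genes). Trbv2 had 107 against 914 UMIs (1.27, 0.96 to 1.56), Trbv19 had 20 against 70 (2.55, 1.76 to 3.29) and Trav5-4 had 39 against 165 (2.28, 1.74 to 2.79). Trbv2, Trbv19 and Trav5-4 were thus higher in the combination than under anti-PD-1 among CD8-gate cells too. Between combination and vehicle 2 of 8 were higher and 4 lower (2.88% and 9.96% of all genes), with Trbv2 at 107 against 6 UMIs (2.52, 1.35 to 4.00) and Trav5-4 at 39 against 38 (-1.60, -2.28 to -0.91). Between anti-PD-1 and vehicle 2 of 34 were higher and 10 lower (4.55% and 20.2% of all genes), and Trbv2 had 914 against 6 UMIs (1.26, 0.13 to 2.71). Between ATT-I and vehicle 0 of 5 were higher and 3 lower (4.12% and 16.1% of all genes), Trav5-4 among them with 5 against 38 UMIs (-3.10, -4.81 to -1.76).

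Of the 18 receptor partners listed, 15 were analysed. With anti-PD-1 against vehicle 3 were at least 2-fold higher, Tcrg-C2 by 1.53, and the CD3 chains Cd3g by 1.32 and Cd3d by 1.17 on the log2 scale, and Trdc was lower (-2.06). Between combination and vehicle none of 14 was higher and 2 were lower, Trdc and Tcrg-C1. Between ATT-I and vehicle none was higher and 1 lower, Trdc (-1.12).

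Between gates of the anti-PD-1 library the V genes separated CD8 from CD4 cells in both directions. Of 34 tested V genes, 6 were at least 2-fold higher and 14 lower in the CD8 than in the CD4 gate, where 4.31% of all genes were higher and 11.4% lower, and the median log2 ratio was -0.54 for V genes and -0.10 for all genes. Trbv29 had 176 UMIs in the CD8 gate and 2 in the CD4 gate (3.36, 1.48 to 6.41), and Trbv16 had 311 and 7 (2.37, 1.31 to 3.70). Trav9n-4 was higher by 1.69 and Trav5-4 by 1.26. Trbv2 was higher by 0.95 (0.56 to 1.37), under the limit. Trav6-7-dv9 had 53 UMIs in the CD8 gate and 28 in the CD4 gate (-2.18, -2.87 to -1.47), and Trav4-4-dv10 (-1.98), Trbv3 (-1.90), Trbv1 (-1.89) and Trbv20 (-1.37) were lower too. Of 15 partners, Tcrg-C2 was higher and Trdc lower (-1.42).

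**Figure D5:**
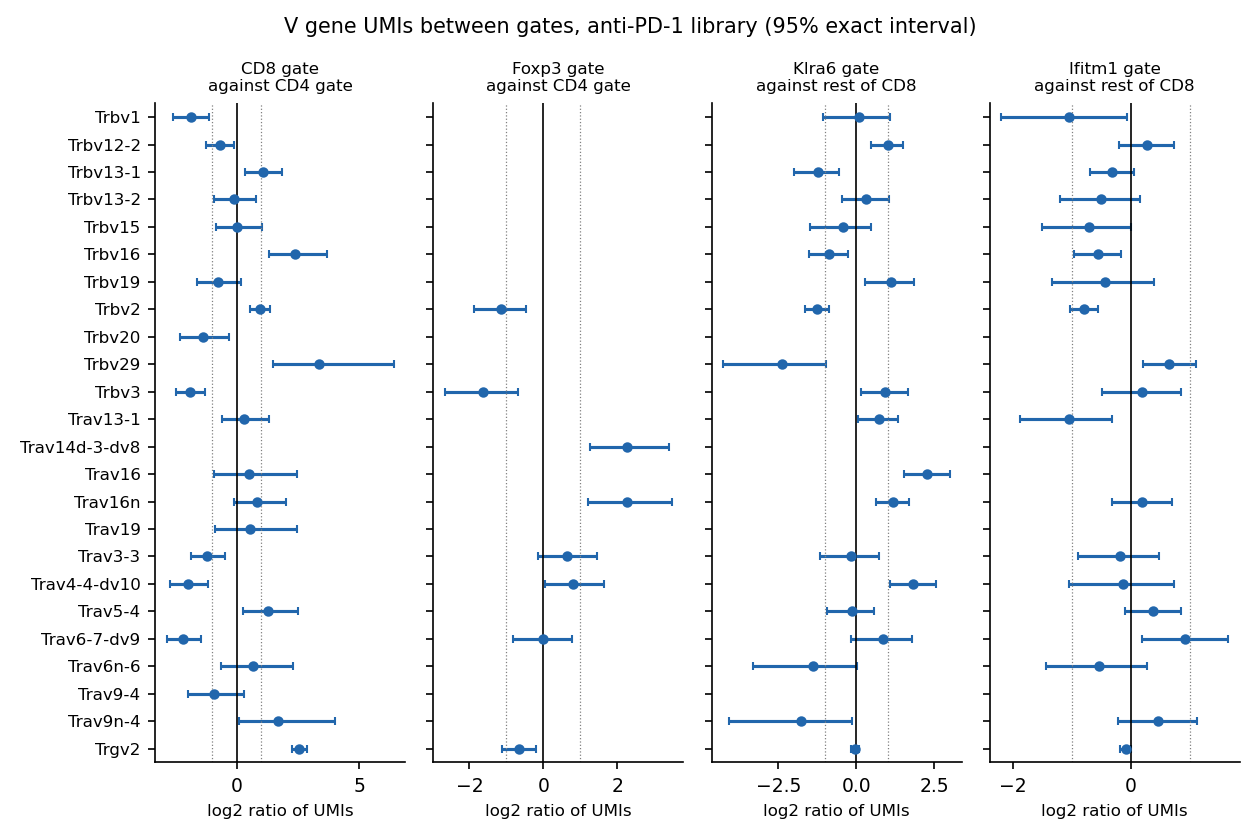
Log2 ratio of UMIs per depth for V genes with at least 50 UMIs, between gates of the anti-PD-1 library. Points are ratios of the gate named first over the gate named after it, bars exact 95% intervals, and dotted lines mark 2-fold. Trbv29 is high in the CD8 against the CD4 gate (3.36) and low in the Klra6 gate against the rest of CD8 (-2.38).

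The Foxp3 gate differed from the CD4 gate in alpha chain genes. Of 28 tested V genes, 5 were higher and 9 lower in the Foxp3 gate (4.33% and 5.31% of all genes, medians -0.35 and 0.02). Trav14d-3-dv8 had 52 UMIs in the Foxp3 gate and 10 in the CD4 gate (2.26, 1.26 to 3.40), and Trav16n had 47 and 9 (2.26, 1.22 to 3.48). Trav14d-3-dv8 led 29 of 211 Foxp3-gate cells with a leading Trav gene (13.7%), Trav16n led 25 and Trav3-3 led 23. In the CD4 gate Trav6-7-dv9 led 20 of 145 (13.8%), Trav3-3 led 17 and Trav4-4-dv10 led 13. Per UMI of depth, Trbv3 was lower in the Foxp3 gate with 13 against 37 UMIs (-1.63, -2.67 to -0.69), and Trbv2 with 27 against 55 (-1.15). Trbc1 and Trbc2 together had 14120 UMIs in the Foxp3 gate and 22068 in the CD4 gate. Among cells with a leading Trbv gene the Trbv2 share was not lower, at 18.7% in the Foxp3 gate and 17.8% in the CD4 gate. A Trbv UMI was found in 9.49% of Foxp3-gate cells and 15.6% of CD4-gate cells, while a Trav UMI was found in 19.7% and 12.4%. None of 14 partners passed 2-fold.

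The Klra6 gate, which also holds cells outside the CD8 gate, used beta chain genes more evenly than the remaining CD8 cells. Its cells within the CD8 gate alone lay between these groups in Trbv2 share and effective number, as given at the end. Of 34 tested V genes, 12 were higher and 5 lower (5.17% and 4.04% of all genes, medians 0.67 and 0.02). Trav16 had 32 UMIs in the Klra6 gate and 35 in the remaining CD8 cells (2.28, 1.54 to 3.01), Trav4-4-dv10 had 28 and 42 (1.82), and Trav16n 44 and 103 (1.18). Trbv19 was higher by 1.10, and Trbv12-2 had 45 and 119 UMIs. Trbv29 had 4 UMIs in the Klra6 gate and 110 in the remaining CD8 cells (-2.38, -4.28 to -0.98), and Trav9n-4 (-1.77), Trav6n-6 (-1.40), Trbv2 (-1.25) and Trbv13-1 (-1.23) were lower. Trav16 and Trav16n each led 23 of 157 cells of this gate (14.6%), and Trav13-1 led 16. Of the 945 cells 370 (39.2%) lay in the CD8 gate. Trdc (3.96), Ptcra, the pre-T alpha chain gene (3.33), Tcrg-C4 (2.65) and Tcrg-C1 (2.34) were higher in the Klra6 gate, 4 of 15 partners, and their part in the V gene values was not tested. Few cells held Trdc or Ptcra. Trdc had 91 UMIs in 16 Klra6-gate cells against 31 in 22 remaining CD8 cells. Ptcra had 46 UMIs in the whole anti-PD-1 library, in 0.207% of its cells. Tcrg-C4 was found in 27.9% of Klra6-gate and 4.42% of remaining CD8 cells, and Tcrg-C1 in 13% and 2.25%. Within the CD8 gate alone, an alternative added after the data were seen, Trbv29 (-1.62), Trbv13-1 (-1.72) and Trbv12-2 (20 against 119 UMIs) kept their directions, and Trav16 was higher by 1.62. Trbv2 was at -0.70 (-1.20 to -0.23), no longer past 2-fold, and Trbv19 at 0.20 (-1.48 to 1.51). Trav4-4-dv10 had 0 UMIs in these Klra6 cells against 42, and Trav16n was at 0.06.

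The Ifitm1 gate was nearer to the remaining CD8 cells. Of 34 tested V genes, 5 were higher and 4 lower (3.31% and 1.32% of all genes, medians -0.10 and 0.01). Trav6-7-dv9 had 30 UMIs in the Ifitm1 gate and 38 in the remaining CD8 cells (0.93, 0.19 to 1.66), and Trbv29 had 72 and 110 (0.66, 0.21 to 1.10). Trav9n-4 (0.47), Trav5-4 (0.38) and Trbv12-2 (0.28) followed, with intervals that include no difference. Trbv2 had 181 and 756 UMIs (-0.79, -1.03 to -0.56), and Trbv1 (-1.05), Trav13-1 (-1.05) and Trbv16 (-0.55) stood lower. Trbv15 was at -0.71, with an interval from -1.50 to 0.01. Trav16n and Trav5-4 each led 30 of 231 cells with a leading Trav gene (13%), and Trav9n-4 led 29. Of the 2119 cells 1443 (68.1%) lay in the CD8 gate. Within it the ratios were 0.98 for Trbv29, 0.81 for Trav9n-4, 0.61 for Trav5-4 and -0.82 for Trbv2, and that of Trav6-7-dv9 was 0.10 (-0.97 to 1.07). Trbv29 and Trav9n-4 were also the second most frequent pair of the anti-PD-1 CD8 gate. Of 15 partners only Ptcra passed 2-fold, and it was lower, with 46 UMIs in the whole anti-PD-1 library.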

How the data were processed

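The authors deposited a single table of natural log values for all cells. Cell Ranger, Seurat and mm10 are named, per the submitters' processing notes. Versions, chemistry and cell filters are not given in the sources used here. The deposited values were read as the natural log of 1 plus UMIs per 10000, lowered by a constant per library (0.2254 combination, 0.2485 anti-PD-1, 0.1532 ATT-I, 0.2471 vehicle) and set to 0 below it. With this, 100% of values came within 0.02 of whole UMIs. In 37 combination, 37 anti-PD-1, 0 ATT-I and 21 vehicle cells the subtraction hid single UMIs. No cell was removed and no doublet caller was run. Depth totalled 5232593, 108628721, 2878355 and 3099824 UMIs in combination, anti-PD-1, ATT-I and vehicle.

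Shares have exact Clopper-Pearson 95% intervals and ratios of summed UMIs over summed depth exact conditional intervals. Effective numbers have approximate delta-method intervals. All cover counting error only. A group at 0 took a floor of 3 UMIs. Genes needed 10 UMIs over both groups. No p-value was computed, since each arm has 1 library. On simulated data 198 of 200 genes changed 4-fold were recovered between CD8 and CD4 gates (12835 genes) and 200 of 200 between combination and vehicle (10893 genes). The changed genes were taken from those with at least 50 UMIs over both groups, and the simulated UMIs were independent. Most V genes have fewer UMIs between combination and vehicle (median 19), so this recovery does not apply to them.

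Named genes were the 3 leading Trbv and Trav genes per arm and gate (3 cells or more), the Trgv and Trdv genes, the 5 V genes with the largest ratio each way per gate comparison (50 UMIs or more), the 3 most frequent pairs, and the receptor partners. Members and lists were chosen with earlier results of these data known. Sequences came from GRCm38 and GENCODE vM21. Alternatives changed the UMIs required, gates, thinning, weighting and subgroups. Python 3.11.15, numpy 2.4.6, scipy 1.17.1 and pandas 2.3.3 were used.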

Additional observations from a re-analysis of the deposited data

How the results depend on the processing

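No paired analysis was possible because each arm has 1 library, and leaving out a replicate was not possible for the same reason. Over the main shares, effective numbers and counts, 163 alternatives stayed within their limits and 51 moved. For shares and effective numbers the limits were the counting interval of the main value. Such intervals are wide in small libraries and gates, so an alternative within them there says little. Requiring 2 UMIs of the leading V gene raised the Trbv2 share to 55.7% with anti-PD-1, and to 59.3%, 35.7%, 40%, 52.4% and 61.2% in its CD8, Foxp3, Klra6, Ifitm1 and remaining CD8 cells, while the top gene of the CD4 gate (Trbv3) and the top gene of ATT-I (Trbv12-2) fell to 0%, so that Trbv2 led the CD4 gate (15 of 34, 44.1%) and the order of Trbv3 and Trbv2 there turned round. The combination share under this setting was 59.6%, within the interval of its main value, and it overlapped that of anti-PD-1. With anti-PD-1 this setting kept a larger part of Trbv2-led cells than of cells led by other genes. It therefore cannot show whether the libraries differ in Trbv2 share. With 2 UMIs required, the effective number became 2.95 with anti-PD-1 and 2.63, 6.5, 5, 3.3 and 2.49 in its CD8, Foxp3, Klra6, Ifitm1 and remaining CD8 cells. It was 4.28 in the anti-PD-1 CD4 gate and 6 with ATT-I. The ATT-I library held 53 Trbv UMIs in 47 cells, so its values under this setting rest on very few cells. Thinning gave a Trbv2 share of 70% (effective number 2.04) for the combination and 81.2% (1.54) in its CD8 gate, and effective numbers of 6.17 and 8.09 in the anti-PD-1 CD8 and Foxp3 gates. The combination shares rest on few cells. After thinning 20 of its cells held a Trbv UMI and 14 a Trbv2 UMI, and in its CD8 gate 16 and 13. With anti-PD-1 a Trbv UMI was then found in 1086 cells and a Trbv2 UMI in 312. Joining V genes into subgroups gave 6.04 with anti-PD-1, 6.02 with ATT-I and 6.69 in vehicle, and 5.25, 7.52, 8.1, 6.91, 6.3 and 4.91 in the anti-PD-1 CD8, CD4, Foxp3, Klra6, Ifitm1 and remaining CD8 cells. Shares of UMIs gave 34.6% (5.91) with anti-PD-1, 38.4% (5.04) in the CD8 gate, 30.7% in the Ifitm1 gate and 41.1% (4.61) in the remaining CD8 cells. Gates at 2 UMIs gave 16.2% in the Ifitm1 gate. Within the CD8 gate, chosen after seeing the data, the Klra6 share was 30.5% (7.2). At 50 UMIs over both groups, V genes past 2-fold numbered 1 for combination and 1 for ATT-I against vehicle, 2 for combination against ATT-I, 12 for CD8 against CD4, 4 for Foxp3 against CD4, 10 for Klra6 and 2 for Ifitm1. At 1 UMI they numbered 19 for combination and 14 for ATT-I against vehicle and 20 for combination against ATT-I. The V genes tested change with these limits. The counts stand without the number tested or the share of all genes, so they do not show whether V genes differ from other genes. Few cells bear on the ATT-I and vehicle CD8 gates, with 18 and 17 holding a leading Trbv gene.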
